A study of Mus musculus with 50 samples.

Results

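The libraries described here are the 10 of the series' 50 that were labelled P35, 5 of frontal cortex from wild-type mice and 5 from mice with a single intact copy of Setd1a, and they were chosen by that label. Both groups were male mice aged 35 postnatal days, given as C57BL/6NTac in the labels and as a mixed C57BL/6NTac and C57BL/6J background in the study's methods. The heterozygous mice (Setd1a+/-) carried the tm1d allele, made by a knockout-first design, and came from heterozygous sires and wild-type dams, weaned and then housed with mice of their own sex. Left and right frontal cortex went together into a reagent made for extracting synaptic protein, and part of that material gave the RNA. Polyadenylated RNA was then sequenced in a single batch. The other 40 libraries, of the same genotypes at E14, E18, P7 and P70, were used for comparison. Total counts ranged from 37245168 to 43907318, with the deepest library Het replicate 1 and the shallowest Het replicate 4, and 0 pairs of libraries held identical values.

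SETD1A is the catalytic subunit of a complex that methylates histone H3 at K4, a mark of active promoters, together with the core subunits WDR5, ASH2L, RBBP5 and DPY30. Rare loss-of-function variants in its gene raise the risk of schizophrenia in people, and the question behind the comparison is what loss of a single copy does to transcripts of the cortex. At P35 the mouse cortex is past synapse formation and in the adolescent period, when synapses are pruned and myelin is still being laid down.

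Setd1a (ENSMUSG00000042308, chr7:127776670-127800122 of GRCm38) was counted 3144, 2982, 2830, 2936 and 2953 times in wild-type replicates 1 to 5. In Het replicates 1 to 5 it was counted 3618, 3121, 3025, 3050 and 3287 times. Scaled to library size with TMM factors (CPM), the mean of the 5 wild-type libraries was 85.1 CPM (SD 3.96), and that of the 5 Het libraries was 89.9 CPM (SD 1.77). The groups overlapped, since wild-type replicate 1, at 91.7 CPM, stood above 4 of the 5 Het libraries. The log2 fold change was 0.08 (standard error 0.0530, 95% interval -0.03 to 0.19, unadjusted p = 0.146, two-sided, in the quasi-likelihood test of edgeR). Over the other ages Setd1a was called higher (0.11, adjusted p = 0.0229 in edgeR). Tests across genes set a difference against the spread between animals within groups, pooled over the 50 libraries. The counts cover every annotated exon, those that the allele keeps included, and 52.3% of the exon bases are shared with other annotated genes, so the level checks nothing about the label. Gm49388, an annotated gene that lies across the same exons and was counted for the same fragments, stood at a log2 fold change of 0.11 (unadjusted p = 0.0286 in edgeR), and was, like Setd1a, called higher over the other ages (0.12, adjusted p = 0.00380 in edgeR). For the protein, the study states from earlier work that cortex of the heterozygotes held less Setd1a than wild-type cortex.

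The labelled tissue was checked against markers of its cell types. All 14 markers of cortical excitatory neurons were detected in each of the 10 libraries, led by Slc17a7, the vesicular glutamate transporter of cortex, at a mean of 1839.5 CPM. Their summed level was 3157, 2949, 2889.8, 2834 and 2956 CPM in wild-type replicates 1 to 5 and 3232, 2870.2, 2935, 2720.3 and 2847 CPM in Het replicates 1 to 5. The groups overlapped. Interneurons, astrocytes, oligodendrocytes, microglia and vessel cells were also represented by every marker listed, and each list was compared between genotypes by a two-sided exact permutation test over every division of the 10 libraries into 5 and 5, which can give a p as small as 0.00794. The lowest p over the 11 lists was 0.341, for microglia, with a log2 difference of 0.04 and overlapping groups, and every p after Benjamini-Hochberg adjustment over the lists was 0.937. With a library left out the microglia difference ranged from 0.0230 to 0.0737. A bulk library cannot tell fewer cells of a type from less RNA per cell.

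Markers of neighbouring structures varied widely between animals. The 14 striatal markers, led by Ppp1r1b (DARPP-32, the phosphatase inhibitor of medium spiny neurons), summed to 1318, 1878, 1207, 1226 and 1422 CPM in wild-type replicates 1 to 5. In Het replicates 1 to 5 the sum was 863, 1951, 1242, 2079 and 1797 CPM. Het replicate 1 was the lowest of the 10 and Het replicate 4 the highest, a 2.41-fold range inside a single genotype. The 5 olfactory bulb markers, led by Cdhr1, summed to 25.5, 18.7, 60.2, 131.3 and 22.97 CPM in wild-type and 34.5, 20.3, 33.6, 31.3 and 19.1 CPM in Het replicates 1 to 5. Wild-type replicates 4 and 3 stood highest and the other 8 libraries lay between 18.7 and 34.5 CPM. The 5 olfactory markers all stood lower in the Het group, at a median log2 fold change of -1.05, and Doc2g, of which 63.5% of the exon bases are shared with another gene, was the marker of smallest p (-1.11, standard error 0.435, unadjusted p = 0.0140). Without wild-type replicate 4 the log2 fold change of Doc2g was -0.40. The summed olfactory level differed between groups by a log2 difference of -0.53, which was -0.0845 without wild-type replicate 4 and -0.79 without wild-type replicate 2. That of the striatal markers was 0.12, or 0.00149 without Het replicate 4 and 0.32 without Het replicate 1. The 14 striatal markers and the 5 red cell markers all had log2 fold changes over 0, with medians of 0.17 and 0.28, and none had an unadjusted p under 0.05 in edgeR. The summed red cell level differed by a log2 difference of 0.16, which ranged from -0.0708 to 0.35 with a library left out. Choroid plexus markers were near absent, with Clic6 at a mean of 3.30 CPM and the summed list at 5.56 to 10.03 CPM, and haemoglobin and other red cell genes ran from 180.0 CPM in Het replicate 3 to 585.2 CPM in Het replicate 1. The part of these markers in the values of other genes was not tested.

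**Figure D1:**
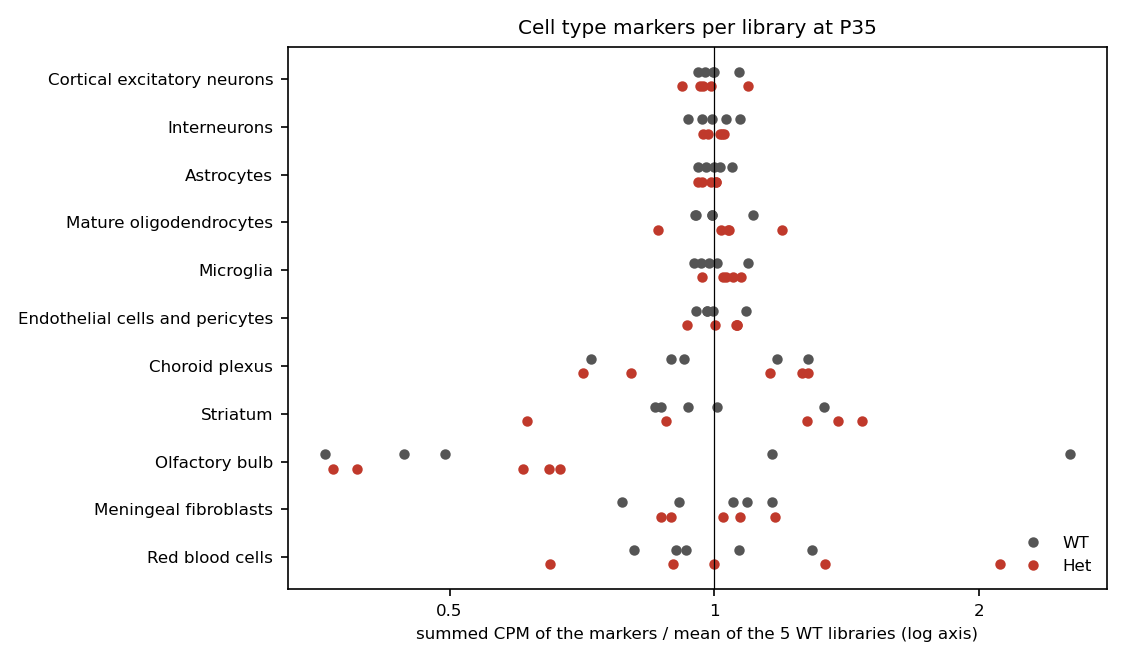
Summed CPM of 11 lists of cell type markers in the 10 libraries at P35, each divided by the mean of the 5 wild-type libraries, on a log axis; each point is a library, wild-type in grey and Het in red. Neuronal and glial lists lie close to 1 in both genotypes, and the olfactory bulb list has its highest value in wild-type replicate 4.

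The share of counts on the mitochondrial genome (37 genes) was 2.98%, 3.20%, 2.99%, 3.15% and 3.25% in wild-type replicates 1 to 5. It was 3.02%, 3.09%, 3.34%, 3.25% and 3.13% in Het replicates 1 to 5. The groups overlapped and the means differed by 0.0505 percentage points (exact permutation test, two-sided, p = 0.524), or by 0.00695 points without Het replicate 3 and 0.0872 without Het replicate 1. Some mitochondrial messenger RNAs were scarcely counted, with mt-Co2 at a wild-type mean of 2.80 CPM, against 11607 CPM for mt-Co1. Xist reached 16 counts at most, and 4 Y-linked genes together had 5105 counts or more, in each of the 10 libraries, as in male tissue.

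The genes of smallest p at P35 were mostly lower in Setd1a+/- cortex, 18 of the first 20, and were led by Vars2, Foxred1, Dqx1, Col11a2 and Eno3, though none passed adjustment for the number of genes tested. Across the 16330 protein-coding genes tested, 0 differed between genotypes at P35 at an adjusted p under 0.05 (0.0% of tested genes; edgeR, quasi-likelihood, with Benjamini-Hochberg adjusted values), and 550 genes (3.37%) had an unadjusted p under 0.05. Of these 550, 351 (2.15% of tested genes) were lower and 199 (1.22%) higher in Setd1a+/- cortex. With limma-voom and limma-trend 0 genes were also called, and with DESeq2 11, of which 9 were lower and 8 were among the genes called over the other ages. Those 11 were Vars2, Foxred1, Dqx1, Col11a2, Eno3, Rhbdd3, Tmem107, Odr4, Letm2, Gm14419 and Asb16. In an edgeR fit of the 10 P35 libraries alone, 3 genes were called (Col11a2, Foxred1 and Itfg1) and 1420 had an unadjusted p under 0.05. In the fit of all libraries, leaving out Het replicate 5 gave 3 called genes (Foxred1, Letm2 and Odr4), and leaving out wild-type replicate 2 or wild-type replicate 3 gave 1, Vars2, each time. The median standard error of the log2 fold change was 0.0969, and for 73.8% of genes the 95% interval lay inside -0.5 to 0.5.

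The lowest p belonged to Vars2, which encodes the valyl-tRNA synthetase of mitochondria (chr17:35655634-35667592). Its level was 34.99, 30.5, 29.1, 32.7 and 33.4 CPM in wild-type replicates 1 to 5 and 26.5, 27.4, 25.7, 27.2 and 26.5 CPM in Het replicates 1 to 5. All 5 Het libraries lay under all 5 wild-type libraries. The log2 fold change was -0.27 (standard error 0.0506, adjusted p = 0.0529 in edgeR with Benjamini-Hochberg adjustment), so it missed the threshold. Groups that did not overlap, with Het lower, were seen for 216 of the tested genes (1.32%), and with Het higher for 151 (0.925%).

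Foxred1, an assembly factor of respiratory complex I (chr9:35204206-35211055), had levels of 38.7, 38.8, 38.4, 38.8 and 40.4 CPM in wild-type replicates 1 to 5. In Het replicates 1 to 5 they were 29.4, 30.6, 30.2, 33.4 and 33.5 CPM. The wild-type values lay within a narrow band and every Het library was under it. The log2 fold change was -0.31 (standard error 0.0611, adjusted p = 0.0546 in edgeR with Benjamini-Hochberg adjustment).

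Col11a2, a fibrillar collagen chain (chr17:34039437-34066685), showed a larger difference. Its level was 39.8, 43.03, 38.6, 37.4 and 36.2 CPM in wild-type and 22.1, 27.3, 25.7, 25.6 and 25.9 CPM in Het replicates 1 to 5, with no overlap, and its log2 fold change was -0.62 (adjusted p = 0.0621 in edgeR, standard error 0.129). Eno3, the muscle enolase, stood at 9.01, 7.71, 7.91, 7.20 and 8.97 CPM in wild-type and 5.21, 5.96, 6.51, 5.45 and 4.90 CPM in Het replicates 1 to 5, again without overlap (-0.54, standard error 0.113, adjusted p = 0.0621 in edgeR). Enolases convert 2-phosphoglycerate to phosphoenolpyruvate, and Eno3 is a minor form in brain, where Eno2 and Eno1 predominate. Rhbdd3, a rhomboid-like membrane protein, and Tmem107, a protein of the ciliary transition zone, had log2 fold changes of -0.24 (standard error 0.0529) and -0.51 (0.113), with every Het library under every wild-type library. Letm2 and Odr4 followed, at -0.33 and -0.18, and in both of these Het replicate 5 reached into the wild-type range.

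Dqx1 and Prok1 completed the 10 lower genes of smallest p, and both were scarce. Dqx1, a putative RNA helicase, stood at 0.612, 0.829, 1.07, 1.01 and 1.13 CPM in wild-type and 0.254, 0.424, 0.525, 0.410 and 0.306 CPM in Het replicates 1 to 5, or a log2 fold change of -1.27 (adjusted p = 0.0621 in edgeR, standard error 0.263), and its groups did not overlap. Prok1, which encodes a prokineticin, had at most 0.433 CPM in any library and overlapped between groups.

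**Figure D2:**
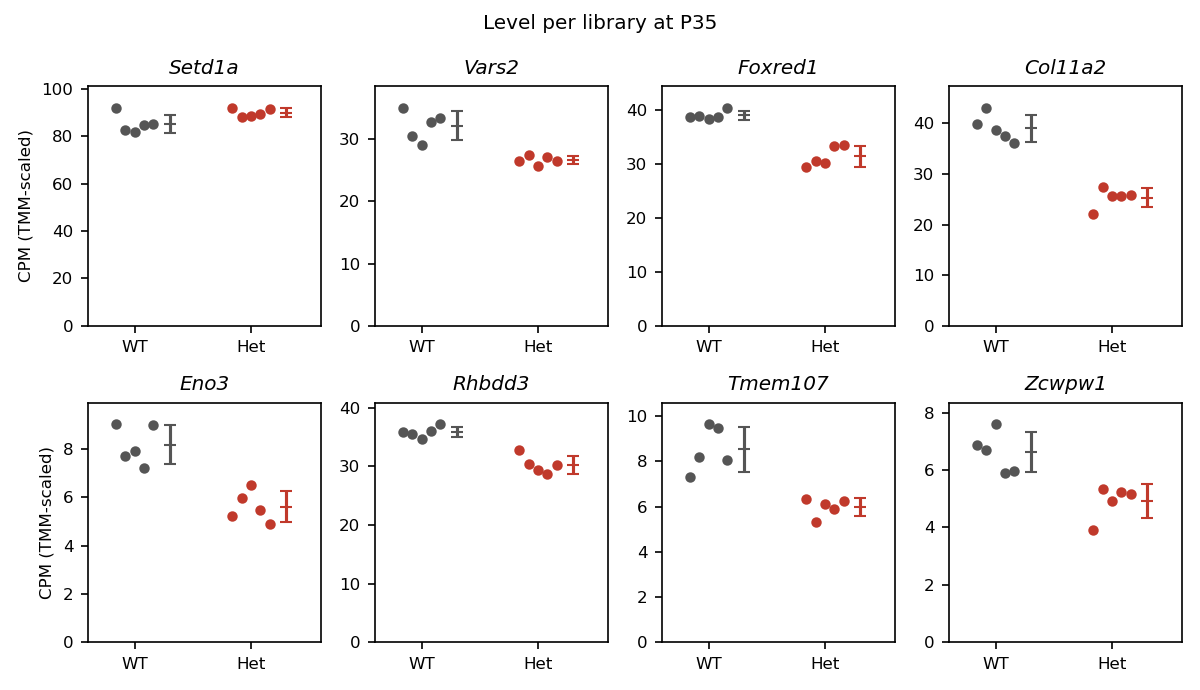
Level of 8 genes in each P35 library in CPM after TMM scaling, with wild-type in grey and Het in red; points are libraries and the bars are the mean ± SD of 5. For Vars2, Foxred1, Col11a2, Eno3, Rhbdd3, Tmem107 and Zcwpw1 all Het libraries lie under all wild-type libraries, and for Setd1a the groups overlap.

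The 10 genes of smallest p that were higher in Setd1a+/- cortex had larger p than the lower ones, the smallest adjusted p being 0.234 (edgeR, Benjamini-Hochberg), and most were expressed at low levels. Gm14419, a zinc finger gene on chromosome 2, stood at 0.525, 0.718, 0.462, 0.403 and 0.519 CPM in wild-type and 1.93, 1.05, 1.23, 1.23 and 1.31 CPM in Het replicates 1 to 5 (1.35, standard error 0.330). No Het library overlapped a wild-type library. Zfp972 (1.34, standard error 0.393) lies within 1 Mb of it, in a cluster of zinc finger genes of similar sequence. Fragments can be hard to assign to 1 copy there, which was not measured, so both values are uncertain. The most abundant of the 10 was Ass1, argininosuccinate synthase of the arginine and nitric oxide pathway, at 19.8, 21.96, 20.6, 20.9 and 21.6 CPM in wild-type and 22.3, 27.8, 23.8, 29.2 and 26.6 CPM in Het replicates 1 to 5. All Het libraries stood above all wild-type libraries, at a log2 fold change of 0.31 (adjusted p = 0.392 in edgeR, standard error 0.0870). The remainder were BC035947 (1.12), Gm19345 (0.65), 2210016F16Rik (0.42), Asb16 (0.75), C3 (1.35), Haus8 (0.25) and Spink13, of which each wild-type library held at most 1 count.

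The 40 libraries of the other ages share no library with the 10 at P35. Signs, log2 fold changes and levels at P35 of the genes called in them thus come from libraries not used to call them. The p at P35 is not separate in that way, since its spread was pooled over all 50 libraries, these 40 included. Counts by p at P35 are therefore not independent of those calls. Over E14, E18, P7 and P70 with age as a covariate, 469 genes were called in edgeR at a Benjamini-Hochberg adjusted p under 0.05 (2.87% of tested genes), 414 of them lower (2.54%) and 55 higher (0.337%) in Setd1a+/- cortex. At P35, 402 of the 414 lower genes were under 0 (97.1%, 95% Wilson interval 95% to 98.3%, an interval that treats genes as independent), against 47.7% of all tested genes. Their median log2 fold change was -0.14 at P35, with quartiles of -0.19 and -0.08, and -0.17 over the other ages, whereas the median of all tested genes at P35 was 0.00477. Of the 55 higher genes, 53 were over 0 at P35 (96.4%), against 52.2% of all tested genes, with a median of 0.12 at P35 and 0.16 over the other ages. With a minimum of 10 CPM in 5 libraries that median at P35 was 0.0741, and over the alternatives the share over 0 was at least 90.6%. At an unadjusted p under 0.05 and in the same direction were 169 of those called lower (40.8%, against 2.15% of tested genes) and 16 of those called higher (29.1%, against 1.22%), and 0 genes of either set passed that threshold in the other direction. The groups at P35 stood fully apart for 91 of the lower genes (22.0%, against 1.32% of tested genes). Among the 40 libraries, 3 wild-type ones (replicate 5 at E14, replicate 2 at E18 and replicate 2 at P7) were taken to stand apart from their groups, for which no measure is given here. Without these 3, an alternative chosen after seeing the data, 5 genes were called at P35 (Col11a2, Eno3, Foxred1, Tmem106c and Vars2), and 99.1% of the genes then lower over the other ages were under 0 at P35.

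Read the other way, 15 of the 20 genes of smallest p at P35 were among the 469 called over the other ages in the same direction. Vars2, Foxred1, Eno3, Rhbdd3, Tmem107, Odr4, Letm2 and Gm14419 were among these 15. The other 5, Dqx1, Prok1, Col11a2, Nthl1 and Elmod2, were not called over the other ages. The log2 fold changes of the first 3 there were -0.12, -0.0121 and -0.30 in that order, with an adjusted p of 0.0601 for Col11a2 in edgeR. The ranking by p at P35 uses the spread pooled over all 50 libraries, so it is not independent of the calls over the other ages.

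**Figure D3:**
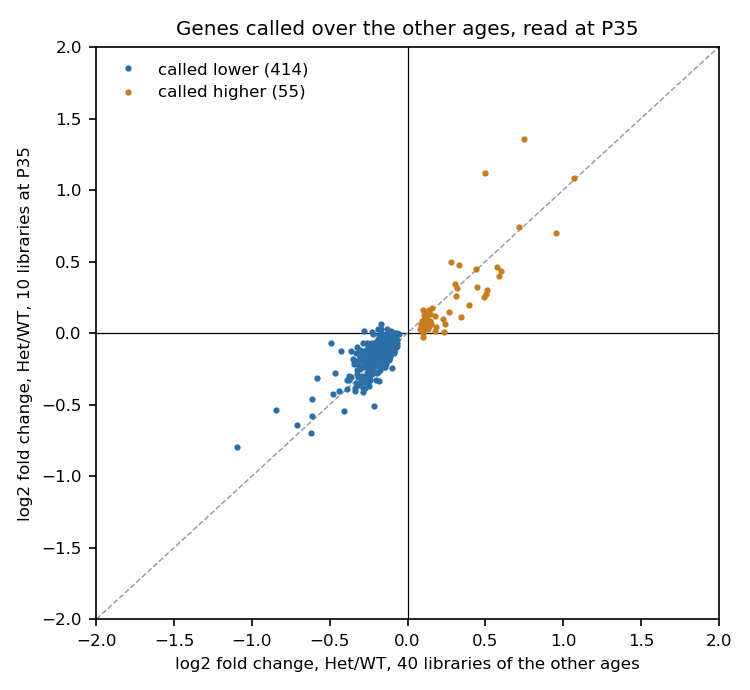
Log2 fold change (Het over wild-type) of the 414 genes called lower and the 55 called higher over the other ages, from the 40 libraries of those ages (x axis) and from the 10 libraries at P35 (y axis); each point is a gene, the dashed line marks equal change, and 1 gene lies outside the axes. Of the lower genes 402 lie under 0 at P35, and of the higher genes 53 lie over 0.

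Several of the genes that led over the other ages are known by function. Zcwpw1, a reader of methylated histone H3 that acts with PRDM9 in meiosis (chr5:137787798-137822621), stood at 6.88, 6.71, 7.59, 5.91 and 5.97 CPM in wild-type replicates 1 to 5 at P35. In Het replicates 1 to 5 it stood at 3.91, 5.34, 4.93, 5.22 and 5.18 CPM. No Het library reached the wild-type range, and the log2 fold change was -0.43 (standard error 0.111) at P35 and -0.48 over the other ages. D2hgdh, a mitochondrial dehydrogenase that clears D-2-hydroxyglutarate, was at a mean of 8.40 CPM (SD 0.595, n = 5) in wild-type libraries and 6.83 CPM (SD 0.589, n = 5) in Het libraries (-0.30, standard error 0.0901), and its groups stood apart. Ccdc91, a trans-Golgi accessory protein, and Slx4ip, a partner of the SLX4 nuclease scaffold, had log2 fold changes of -0.16 and -0.25 with no overlap between groups. Tada3, an adaptor of histone acetyltransferase complexes, overlapped between groups (-0.15), as did Pih1d1, a cochaperone (-0.08). Ap4b1, a subunit of the AP-4 vesicle coat, and Gm43064 share most of their exon bases and had the same log2 fold change of -0.25, so they stand for the same fragments. Among the higher genes, Gm14418 (0.70), Gm14322 (0.40) and Gm14403 (0.43) belong to the zinc finger cluster on chromosome 2. The same uncertainty about assigning fragments, not measured, holds for these values. Phlda3, a p53-induced inhibitor of AKT, and the RNA helicase gene Dhx16 stood at 0.14 and 0.09, with overlapping groups. Without 1 library, the value was 0.26 for Gm14403 (wild-type replicate 1), and for Dhx16 0.0493 (wild-type replicate 5) or 0.13 (wild-type replicate 4).

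The start regions of genes that led among the lower ones at P35 or over the other ages, and of Setd1a, were searched for the letters of 4 transcription factor sites. Windows of 300 bases, 250 before and 50 after the annotated start, were taken from RefSeq (GRCm38.p6), which had a window for 16 of 19 genes looked up. The search covered both strands, for CCGGAAG, the core letters of ETS factor sites, GCGCATGC of NRF1 sites, AAGATGGCG of YY1 sites and TCTCGCGA of ZBTB33 sites. Over all 32851 windows, 8.86%, 2.71%, 1.403% and 0.995% hold these letters in that order, and over the 12658 windows of tested genes 15.6%, 4.79%, 2.65% and 2.01% do. Of the 16 windows 6 hold any of them, and these 6 are shown for that reason, so the display is not a sample of the lower genes. The other 10 hold none, and of these Foxred1 is shown as the gene of second-smallest p at P35. Capitals mark the letters found. Those of ETS sites are in the windows of Ccdc91 (chr6:147475621-147475920, plus strand), Tada3 (chr6:113377789-113378088, minus strand) and Slx4ip (chr2:136890968-136891267, plus strand), the last of which also holds those of NRF1, as does Vars2 (chr17:35667543-35667842, minus strand). Zcwpw1 (chr5:137787552-137787851, plus strand) holds those of YY1 and Tmem107 (chr11:69070559-69070858, plus strand) those of ZBTB33, and Foxred1 (chr9:35211006-35211305, minus strand) has none of them in its window. The 7 windows shown hold between 11 (Ccdc91) and 31 (Foxred1) CG dinucleotides, the 16 between 3 (Eno3) and 38 (Rhbdd3), and the median over the windows of tested genes is 19. Of the 16308 symbols of tested genes 77.6% had a window, and no comparison between sets of genes is given.
Ccdc91: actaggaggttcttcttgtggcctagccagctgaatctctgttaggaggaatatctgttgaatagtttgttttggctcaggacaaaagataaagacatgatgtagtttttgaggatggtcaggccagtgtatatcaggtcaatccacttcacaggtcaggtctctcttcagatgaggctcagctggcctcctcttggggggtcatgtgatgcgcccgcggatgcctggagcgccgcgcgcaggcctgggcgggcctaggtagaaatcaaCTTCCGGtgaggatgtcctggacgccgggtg
Tada3: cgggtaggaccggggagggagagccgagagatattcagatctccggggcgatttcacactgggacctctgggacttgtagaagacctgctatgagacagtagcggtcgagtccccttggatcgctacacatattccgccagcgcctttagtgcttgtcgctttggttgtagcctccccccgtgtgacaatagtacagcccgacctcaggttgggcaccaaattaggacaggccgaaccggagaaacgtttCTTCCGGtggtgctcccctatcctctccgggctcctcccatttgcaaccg
Slx4ip: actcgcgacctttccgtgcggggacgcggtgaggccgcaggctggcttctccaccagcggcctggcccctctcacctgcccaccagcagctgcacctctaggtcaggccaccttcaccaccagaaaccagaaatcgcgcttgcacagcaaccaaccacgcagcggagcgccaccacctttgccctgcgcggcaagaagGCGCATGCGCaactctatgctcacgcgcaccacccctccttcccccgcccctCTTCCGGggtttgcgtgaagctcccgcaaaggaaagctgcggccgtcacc
Vars2: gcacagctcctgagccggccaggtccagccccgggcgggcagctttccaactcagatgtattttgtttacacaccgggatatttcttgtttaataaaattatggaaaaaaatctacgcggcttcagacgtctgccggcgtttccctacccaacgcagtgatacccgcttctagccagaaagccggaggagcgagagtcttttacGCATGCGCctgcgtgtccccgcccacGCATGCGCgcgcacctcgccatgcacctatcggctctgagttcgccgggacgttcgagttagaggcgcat
Zcwpw1: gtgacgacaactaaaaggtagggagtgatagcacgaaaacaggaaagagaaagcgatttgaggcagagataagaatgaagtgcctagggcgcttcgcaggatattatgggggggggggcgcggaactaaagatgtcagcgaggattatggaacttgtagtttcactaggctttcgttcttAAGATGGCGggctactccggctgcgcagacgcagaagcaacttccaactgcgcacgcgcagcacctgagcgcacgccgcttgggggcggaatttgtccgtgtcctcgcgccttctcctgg
Tmem107: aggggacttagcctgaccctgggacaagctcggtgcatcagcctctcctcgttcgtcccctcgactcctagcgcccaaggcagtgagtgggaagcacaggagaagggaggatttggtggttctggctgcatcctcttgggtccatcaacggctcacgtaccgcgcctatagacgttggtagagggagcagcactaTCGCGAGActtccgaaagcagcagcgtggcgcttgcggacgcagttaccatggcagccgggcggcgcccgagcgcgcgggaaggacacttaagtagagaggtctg
Foxred1: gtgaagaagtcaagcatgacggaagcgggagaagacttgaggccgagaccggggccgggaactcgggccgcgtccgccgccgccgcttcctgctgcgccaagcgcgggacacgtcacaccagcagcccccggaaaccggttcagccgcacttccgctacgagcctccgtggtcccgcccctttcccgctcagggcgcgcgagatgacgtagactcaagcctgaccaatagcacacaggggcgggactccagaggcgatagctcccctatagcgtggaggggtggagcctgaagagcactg

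Whether the effect of genotype at P35 differed from that at the other ages was tested directly, as the effect at P35 minus the mean of the effects at E14, E18, P7 and P70. In edgeR 0 of 16330 genes differed at an adjusted p under 0.05 (0.0%) and 185 (1.13%) had an unadjusted p under 0.05, and limma-voom, limma-trend and DESeq2 also called 0. The smallest adjusted p was 1.00. The 5 genes of smallest unadjusted p were Dqx1, Prok1, Asb16, Ly6g5b and Olfr464, all scarce transcripts with at most 2.56 CPM in any library at P35. Of the 414 genes lower over the other ages, 296 had a log2 fold change of smaller size at P35 than there, and 9 had an unadjusted p under 0.05 for the difference. These genes were chosen by a threshold in the other ages, which favours large values there, so the 296 decide nothing about age. For 405 of the 414 the 95% interval of the difference spanned 0. In 12 of the 414 the sign at P35 was the other way, among them Brca2 (0.02 against -0.28) and Mettl21a (0.01 against -0.23), chosen after their values were seen.

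Genes of the histone mark itself were then read by role. Of the 20 methyltransferases and complex subunits, all tested, 0 were called, 1 was lower at an unadjusted p under 0.05 (2.15% of all tested genes) and 0 were higher, and the median log2 fold change was 0.01. That gene was Pagr1a, a subunit of the KMT2C and KMT2D complexes (-0.11, standard error 0.0522), of which 98.7% of the exon bases are shared with another gene. Among the 6 demethylases 0 passed an unadjusted p under 0.05, with a median of -0.000442 and Kdm1b at the smallest p (-0.09, unadjusted p = 0.118). Of the 12 readers tested, Zcwpw1 alone passed that threshold and the median was -0.02.

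Mitochondrial genes were read in several lists. Of 36 nuclear subunits of complex I, 0 had an unadjusted p under 0.05, 18 were under 0 and the median was 0.000455. Ndufa7 had the smallest p, at a mean of 48.4 CPM (SD 1.50, n = 5) in wild-type libraries and 43.7 CPM (SD 0.790, n = 5) in Het libraries, without overlap (-0.15, standard error 0.0745). Of 19 assembly factors tested, 15 were under 0 (47.7% of all tested genes were), and Foxred1 and Nubpl, which delivers iron-sulfur clusters to complex I, were lower at an unadjusted p under 0.05, as 2.15% of all tested genes were (-0.36 for Nubpl, unadjusted p = 0.00241). The median of the assembly factors was -0.02.

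Aminoacyl-tRNA synthetases, which charge tRNAs with their amino acids, were read for both compartments. Of 17 mitochondrial enzymes, 11 were under 0 and the median was -0.06. Rars2, the arginine enzyme, stood at 20.1, 16.5, 19.3, 18.1 and 17.9 CPM in wild-type and 15.3, 15.8, 15.1, 14.7 and 17.1 CPM in Het replicates 1 to 5 (-0.24, standard error 0.0752, unadjusted p = 0.00308). Its groups overlapped, and like Vars2 it was lower at an unadjusted p under 0.05. Of 20 cytosolic enzymes, 14 were over 0 with a median of 0.04, 1 was lower at an unadjusted p under 0.05 and 4 were higher (1.22% of all tested genes were higher at that threshold). The lower gene was Dars, the aspartate enzyme of the cytosol, at 46.6, 42.5, 46.5, 43.4 and 43.03 CPM in wild-type and 40.9, 38.7, 39.4, 39.3 and 39.1 CPM in Het replicates 1 to 5, with no overlap (-0.17, standard error 0.0592). The higher genes were Rars (0.12), Sars (0.10), Yars (0.11) and Lars (0.11), for arginine, serine, tyrosine and leucine, and of these Rars had groups that did not overlap. Lars stood at 0.0708 without Het replicate 1. None of the 5 passed adjustment in edgeR, the smallest adjusted p being 0.908, for Dars.

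Of 13 messenger RNAs encoded by mitochondria, led by mt-Co1 in CPM, 0 had an unadjusted p under 0.05 and the median was 0.04. Wild-type means were 2.80 CPM for mt-Co2, 3.16 for mt-Atp6, 1.45 for mt-Atp8, 3.59 for mt-Nd4l, 7.71 for mt-Co3 and 20.3 for mt-Nd3. That of mt-Co1 was 11607 CPM, so the list mixes abundant with scarcely counted genes. Of 16 glycolytic enzymes, led by Aldoa in CPM per kb of exon, 0 had an unadjusted p under 0.05, with a median of 0.02. That list held Eno1 and Eno2 but not Eno3, which stood at -0.54 (unadjusted p = 1.9e-05 in edgeR), as described above.

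**Figure D4:**
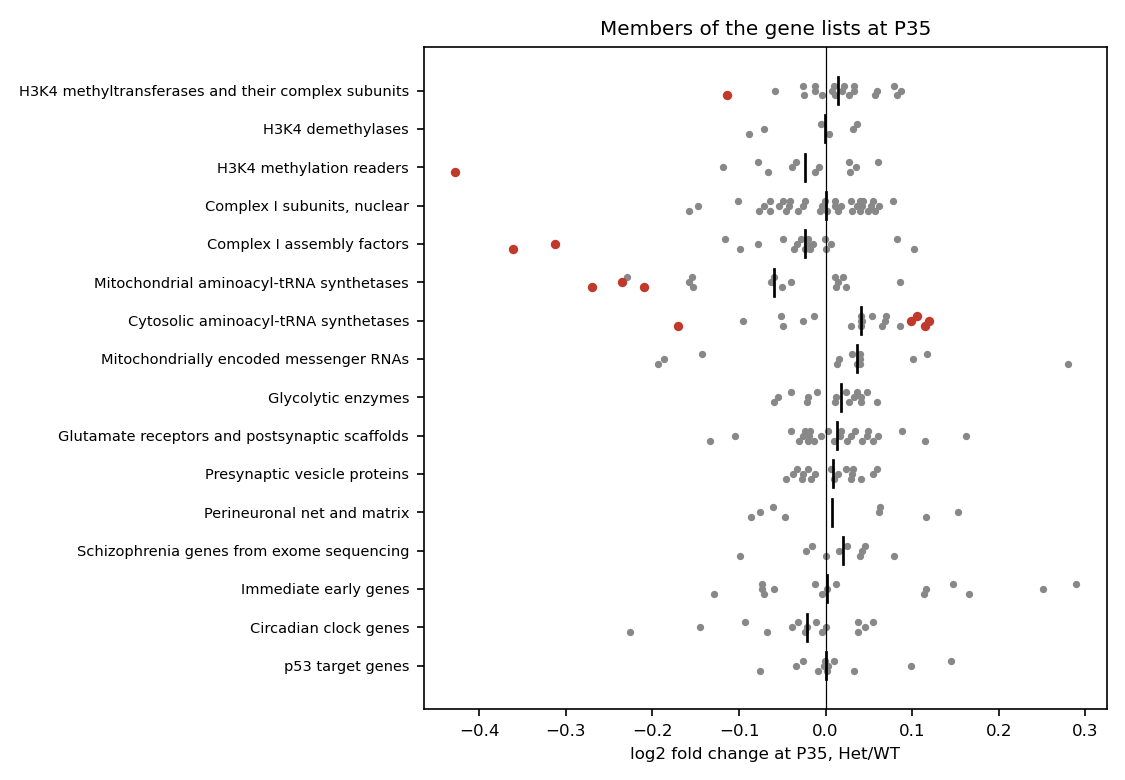
Log2 fold change at P35 (Het over wild-type) of each tested member of 16 gene lists; each point is a gene, red where the unadjusted p was under 0.05, and the black bar is the median of the list. The mitochondrial aminoacyl-tRNA synthetases have a median of -0.06 and the cytosolic ones of 0.04.

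Synaptic genes were read next. Of 26 glutamate receptor and postsynaptic scaffold genes 0 had an unadjusted p under 0.05, with a median of 0.01 and a range from -0.13 (Grin2d) to 0.16 (Grin2b). Grin2b, an NMDA receptor subunit, stood at 599, 479, 672, 589 and 591 CPM in wild-type and 699.8, 649.6, 636, 621 and 671 CPM in Het replicates 1 to 5, with overlap, and its log2 fold change was 0.0980 without wild-type replicate 2. Of 18 presynaptic vesicle genes and 8 genes of the perineuronal net, the matrix around fast-spiking interneurons, 0 had an unadjusted p under 0.05, with medians of 0.01 in each list. Bcan, the core protein brevican, was lower in every Het library than in every wild-type library at a log2 fold change of -0.06 (standard error 0.133, unadjusted p = 0.651). Its mean was 319.8 CPM (SD 5.77) in wild-type and 306.7 CPM (SD 3.93) in Het libraries. The standard error rests on the spread pooled over the 50 libraries, not on those at P35 alone. Of 10 genes with an excess of rare coding variants in schizophrenia exomes, Setd1a among them, 0 had an unadjusted p under 0.05 and the median was 0.02.

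Genes that report the state of the animal or tissue gave 0 members at an unadjusted p under 0.05 in edgeR, over 15 immediate early genes, 15 clock genes and 12 p53 targets. Immediate early genes differed widely between animals. Egr1, an activity-induced transcription factor, stood at 324, 197, 214, 268 and 231 CPM in wild-type and 403, 297, 189, 194.5 and 99.4 CPM in Het replicates 1 to 5, lowest in Het replicate 5 and highest in Het replicate 1.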

How the data were processed

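Per the file headers and the study's methods, the authors trimmed reads, aligned them to GRCm38 with STAR and counted fragments over exons of Ensembl 102 genes with featureCounts 1.4.6-p2, without strand, counting a fragment for each gene it overlapped. The deposited values are raw counts for 55487 genes, of which 55141 were matched to GENCODE M21. Protein-coding genes that passed filterByExpr (minimum count 10, 5 libraries) were tested, 16330 of 21897.

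Counts of all 50 libraries were scaled by TMM and fitted with 10 groups in edgeR 4.0.16 (R 4.3.3) by quasi-likelihood, with Benjamini-Hochberg adjustment and a threshold of 0.05. Standard errors were derived from the log2 fold change and its F statistic. The fit of the 40 other libraries had age as covariate. Alternatives used limma 3.58.1, DESeq2 1.42.0, other scalings and filters, a replicate block, and leaving out each P35 library. An alternative added after seeing the data left out 3 libraries of other ages that stood apart. The fits were tested on simulated data.

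A result for 1 gene was left out, and with it a count of its list. The members and lists were chosen with earlier results of these data known. Motif letters were shortened to under 10 after windows had been searched with longer forms. Genes were named by rank of p at P35, over the other ages and in the difference, and by lists. Gm49388, Brca2, Mettl21a, Xist, Tmem106c, Itfg1, Nthl1, Elmod2 and the genes in the closing section were named after their values were seen.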

Additional observations from a re-analysis of the deposited data

Results flagged for a closer look

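In groups of 5 libraries, a value was listed when its gap to the nearest other value was more than 0.71 of the range of the group, which chance alone gives in about 1 of 20 groups. Of 98 groups, 7 met this. They were the total count of wild-type replicate 2 (4.02e+07), the summed oligodendrocyte markers of wild-type replicate 2 (6850 CPM), Foxred1 in wild-type replicate 5 (40.4 CPM), Prok1 in Het replicate 3 (0.117 CPM), Spink13 in wild-type replicate 2 (0 CPM), Ccdc91 in wild-type replicate 1 (34.1 CPM) and Zcwpw1 in Het replicate 1 (3.91 CPM). The Spink13 value is a count of 0 beside counts of 1.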

How the results depend on the processing

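0 genes were called at P35 with limma-voom, limma-trend, edgeR with robust=TRUE, library size scaling or no filter on low counts. The count was 11 with DESeq2, 2 with DESeq2 size factors within edgeR, 1 with at least 10 CPM in 5 libraries, 2 over all annotated genes, 3 in the 10 P35 libraries alone, 6 at an adjusted p under 0.1, and 5 without the 3 libraries of other ages that stood apart (chosen after seeing the data), with 0 to 3 when a P35 library was left out. The number at an unadjusted p under 0.05 was 827 over all annotated genes, more genes being tested, and 1420 in the P35 libraries alone. Of the genes lower over the other ages, 98.4% were under 0 at P35 with library size scaling and 99.1% without the 3 libraries. Genes called higher over the other ages numbered 90 with DESeq2 and 92 at an adjusted p under 0.1. The cause of these moves was not tested.

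Same-numbered libraries were not paired, since 1 of 5 pairs had a correlation of deviations over 0.1 (range -0.0179 to 0.154) and 2 of 5 wild-type libraries correlated best with their own number. With the replicate block 3 genes were called at P35 (Col11a2, Foxred1 and Tmem107), 0 differed from the other ages, and the mitochondrial share differed by 0.0505 points (exact sign-flip p = 0.688).

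Differences in some marker lists changed sign, and all of these but that of red blood cells (0.16) were near 0. With the mean of log2 CPM, cortical excitatory neurons gave 0.0116, choroid plexus -0.26 and meningeal fibroblasts -0.0506. With a library left out, log2 differences ranged from -0.0564 to 0.00576 for excitatory neurons, -0.02 to 0.0308 for interneurons, -0.0173 to 0.10 for oligodendrocytes, -0.0616 to 0.18 for choroid plexus, -0.0704 to 0.0719 for meningeal fibroblasts and -0.0708 to 0.35 for red blood cells. Dusp1 ranged from -0.00148 to 0.38 and Sox9 from -0.00888 to 0.12. Of 1411 values of 65 genes under the alternatives, 2 changed sign and 30 passed the threshold that the reported value missed. With 5 libraries per genotype, the median standard error was 0.0969, and 0.0718 over genes with a mean of at least 10 CPM. It rests on the spread pooled over the 50 libraries, not on that at P35 alone. The parts of animal number, pooled spread and, for genes near the filter, low counts in this precision were not tested.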

Other observations

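Some genes differed between animals of the same genotype by more than most genes did, and those given here were chosen after looking at their values. The median SD of log2 CPM within a genotype was 0.0756 over the 10729 genes with a mean of at least 10 CPM.

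Ide, which encodes the insulin-degrading enzyme (chr19:37268743-37337852), stood at 98.2, 91.7, 97.8, 69.3 and 91.6 CPM in wild-type replicates 1 to 5 and 69.7, 94.1, 67.5, 43.6 and 44.5 CPM in Het replicates 1 to 5. Het replicates 4 and 5 were the lowest, and the groups overlapped (log2 fold change -0.49, standard error 0.186, unadjusted p = 0.0117 in edgeR). Wdfy1, an endosomal adaptor (chr1:79702262-79776143), stood at 20.8, 19.3, 34.6, 20.4 and 37.3 CPM in wild-type and 20.2, 18.6, 20.96, 19.9 and 20.6 CPM in Het replicates 1 to 5, with wild-type replicates 3 and 5 above all others. Nnt, the mitochondrial nicotinamide nucleotide transhydrogenase, stood at 18.8, 16.9, 23.7, 23.5 and 17.3 CPM in wild-type and 17.7, 26.9, 18.6, 25.04 and 18.8 CPM in Het replicates 1 to 5, high and low values occurring in both genotypes. The background of the mice is mixed by the study's methods, and its part in the values of Ide, Wdfy1 and Nnt was not tested.

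Arc and Fos, immediate early genes, were among the most variable. Fos stood at 29.04, 9.23, 28, 31.96 and 18.2 CPM in wild-type and 39.1, 26.7, 16.1, 23.6 and 5.21 CPM in Het replicates 1 to 5, with the lowest values in Het replicate 5 and wild-type replicate 2.

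Within 1 Mb of Setd1a on either side, 89 genes were tested, of which 60 were under 0 at P35 (47.7% of all tested genes were) with a median log2 fold change of -0.04. At an unadjusted p under 0.05, 5 were lower and 1 higher, against 2.15% and 1.22% of all tested genes. The higher gene was Gm49388, which was counted for the same fragments as Setd1a. Pagr1a, named above among the complex subunits, was among the lower ones and shares 98.7% of its exon bases with another gene. Orai3, a calcium channel gene whose end lies just before the start of Setd1a, stood at -0.29 at P35 (standard error 0.122, unadjusted p = 0.0234) and -0.32 over the other ages (adjusted p = 0.00357, edgeR).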
